A study of Mus musculus with 441 samples.

Results

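RNA polymerase II (RNAP2) was mapped by chromatin immunoprecipitation and sequencing (ChIP-seq) in 3 cultures of mouse embryonic stem cells, with a whole cell extract of each culture as input. These 6 libraries, of 441 samples in the series, were chosen by their labels alone: the antibody or input, and the culture. The first culture was the v6.5 line in serum+LIF, in which LIF is the cytokine that holds stem cells undifferentiated. The second was the same line in 2i+LIF, a medium with inhibitors of the kinases MEK and GSK3 that is called the ground state. The third was a Dgcr8 -/- line made in the v6.5 background and grown in serum+LIF, so the deletion was compared in the same medium as the first culture. Dgcr8 is the partner of the nuclease Drosha in microRNA processing, and cells without it make no canonical microRNAs. Each culture gave 1 RNAP2 library and 1 input library, so differences in RNAP2 have no replicate check and no p-value is given for them. Bulk RNA-seq of the same conditions had 2 libraries for serum, 1 for 2i and 2 for the knockout, and the labels do not say whether they came from separate cultures, so p-values for RNA cover only their spread, which can be technical. The single 2i library has no spread of its own. RNA tests of 2i take theirs from the serum and knockout pairs and assume that 2i varies like them. In bulk RNA, fewer cells of a type and less RNA per cell cannot be told apart.

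RNAP2 transcribes all protein-coding genes, most microRNA precursors and several small nuclear RNAs. At many genes it pauses shortly after starting, so its density around a start site reflects both initiation and release into the gene body. In embryonic stem cells many developmental genes carry both H3K4me3, a mark of starts, and the Polycomb mark H3K27me3. The 2i medium blocks signalling through the kinase ERK, whose direct targets include feedback inhibitors of the same pathway.

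The deposited table gave raw read counts in 1 window of 1000 bases for each of 23167 genes, in mouse build mm9. The position of the windows was checked against RefSeq. Among 3777 pairs of neighbouring windows on opposite strands, the commonest offset (897 pairs, against 22 for the next) was that of a window centred on the annotated gene start, 500 bases to each side. RNAP2 counts summed to 1521860 in serum, 902007 in 2i and 1632114 in knockout cells, and input counts to 457710, 562581 and 480437. Levels are given as CPM, counts scaled to a column sum of 1000000, with an exact 95% Poisson interval that covers counting error only. In 1374 windows whose gene was listed at 0 in all 5 bulk RNA libraries, the median was 8.54 CPM in serum, 11.1 in 2i and 10.4 in knockout cells. A window was called occupied when it held at least 30 CPM and at least 3 times the ratio to input of those silent windows. By this rule 7347 windows (31.7%) were occupied in serum, 4816 (20.8%) in 2i and 5795 (25.0%) in knockout cells. The 2i and knockout libraries stood less far above their silent windows than the serum library, so the lower counts cannot be told apart from lower enrichment of the libraries. In all, 8377 windows were occupied in at least 1 culture and 3654 in all 3. None of 30 tissue genes silent in stem cells and none of 12 fibroblast and feeder genes was occupied in any culture, against 9 of 10 core pluripotency genes in serum, 5 in 2i and 9 in knockout cells. The Dgcr8 window held 210 reads in serum, 129 in 2i and 216 in knockout cells, a ratio of knockout to serum of 0.959 (95% interval 0.790 to 1.17). A window at the start does not show whether a later exon was deleted. Dgcr8 RNA was 10.6 and 10.3 TPM in serum, 4.66 in 2i, and 4.03 and 2.2 in knockout cells, and it was at 1 TPM or more in 94% of single knockout cells. RNA over the whole gene does not show which exons are present.

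RNAP2 at the start was higher in genes with more RNA in each culture. In serum the median was 9.86 CPM for 3217 genes listed at 0, 21 for genes above 0 and under 1 TPM (transcripts scaled to 1000000), 53.2 from 1 to 10, 68 from 10 to 100 and 107 for 712 genes at 100 TPM and more. In 2i the medians of the lowest and highest class were 12.2 and 92.6 CPM, and in knockout cells 10.4 and 93.1. The share of occupied windows went from 7.55% to 85.4% over these classes in serum, from 4.90% to 69% in 2i and from 6.28% to 72.3% in knockout cells. Across 17085 windows with a name in the RNA table, Spearman's rho between RNAP2 and TPM was 0.633 in serum, 0.627 in 2i and 0.619 in knockout cells. These are descriptions across genes, which are not independent replicates. The class of genes above 0 and under 1 TPM had wide quartiles, from 10.5 to 44 CPM in serum, and 28% of its windows were occupied.

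**Figure D1:**
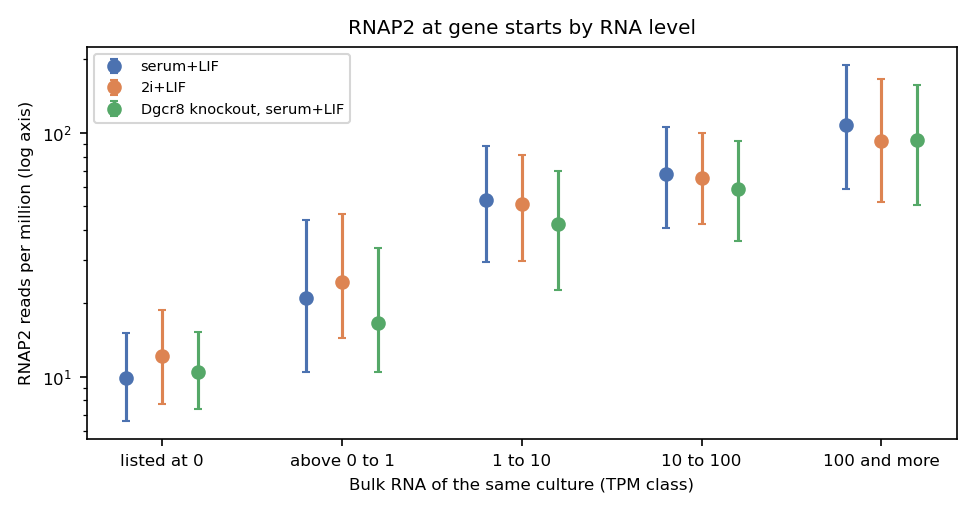
RNAP2 CPM at the gene start (log axis) by TPM class of bulk RNA in the same culture, for serum+LIF, 2i+LIF and the Dgcr8 knockout. Points are medians over genes and bars the quartiles; in serum the medians go from 9.86 in genes listed at 0 to 107 at 100 TPM and more.

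The windows with the most RNAP2 belonged to replication-dependent histone genes, which package newly made DNA and whose mRNAs end in a stem-loop instead of a poly(A) tail. All 65 histone windows found of a list of 66 counted in the comparisons below, and all 65 were occupied in serum and in knockout cells and 64 in 2i. Their median was 861 CPM in serum, 645 in 2i and 943 in knockout cells, against 256, 236 and 198 for 80 cytosolic ribosomal protein genes. Hist1h2bq, a core histone gene at chr13:21901569-21902568, held 1569 CPM (1507 to 1633) in serum, 1346 (1271 to 1424) in 2i and 1688 (1626 to 1752) in knockout cells. Its counts include those of neighbours, since its window overlaps the windows of Hist1h2ao, Hist1h2ap and Hist1h2br. Hist1h3e, a histone H3 gene with no overlapping window, held 1120, 960 and 1152 CPM in the same order. The single window above all histones, Mir101c on chromosome 9, held 2514, 2342 and 3550 RNAP2 reads over 3267, 4435 and 3735 input reads, so its reads were high without the antibody. By contrast Hist1h3e had 14, 32 and 29 input reads.

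Of the 10 windows named for the highest mean RNAP2 among genes listed at 0 in every bulk library, 5 were histone genes and 5 encoded small non-coding RNAs. Rnu11 and Rnu12, the small nuclear RNAs of the minor spliceosome, held 968 and 854 CPM in serum, 1020 and 1019 in 2i, and 907 and 896 in knockout cells. The small nucleolar RNA window Snord104 held 492, 458 and 510. For Rnu11 the ratio to serum was 1.05 (0.969 to 1.15) in 2i and 0.938 (0.872 to 1.01) in knockout cells, and for Rnu12 it was 1.19 (1.1 to 1.30) and 1.05 (0.974 to 1.13).

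The promoter of Hist1h3e is shown because the most occupied windows differed from the rest in these letters. It holds 4 matches to CCAAT, searched on both strands, shown here in capitals in the 250 bases before the start (GRCm38.p6, chr13:23562386-23562635, minus strand, from RefSeq).
Hist1h3e: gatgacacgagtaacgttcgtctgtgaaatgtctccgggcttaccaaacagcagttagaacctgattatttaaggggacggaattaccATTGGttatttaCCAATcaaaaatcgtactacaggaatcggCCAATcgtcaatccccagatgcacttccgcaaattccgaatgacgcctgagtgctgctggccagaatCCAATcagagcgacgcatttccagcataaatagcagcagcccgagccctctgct
Promoter sequences of 300 bases, 250 before and 50 after the start, were matched for 17388 windows. Of 162 with at least 300 RNAP2 CPM, 35.2% held TATAAA and 61.1% held CCAAT, against 13% and 39.2% of all 17388. These 162 include replication-dependent histone genes, a family of related promoters, and its part in the shares was not tested. At 30 to 100 CPM, 5.52% of 5565 promoters held TATAAA, and under 15 CPM 21% of 7288. CpG dinucleotides went the other way: the median count was 4 under 15 CPM, 22 at 30 to 100, 24 at 100 to 300 and 19 at 300 and more. The ETS-factor motif CCGGAAG was in 2.65% of promoters under 15 CPM in 25.2% at 100 to 300 and in 13.6% at 300 and more. All motifs were searched on both strands, and matches may overlap. A match is a description of the letters, not a site.

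For the comparison of cultures, a window counted when the mean of its 3 levels was at least 30 CPM, which 9304 windows (40.2%) did. Ratios are of column-sum-scaled counts, with 1 read added on the log2 scale and exact 95% conditional intervals for single ratios, again for counting error only. In 2i, 415 windows (4.46%) were at least 2-fold above serum and 453 (4.87%) at least 2-fold below. In the knockout, 347 (3.73%) were at least 2-fold above and 172 (1.85%) below. Both comparisons use the same serum library, so a window that was high or low there moves in both, and their values are given side by side only. Scaling by edgeR's TMM factors lowers every log2 ratio by 0.115 in 2i and by 0.056 in knockout cells, and gives 309 above and 620 below in 2i and 316 above and 219 below in knockout cells. After counts expected from input were subtracted, the splits were 946 to 1334 in 2i and 808 to 998 in knockout cells, and after division by input 745 to 1236 and 804 to 1008. In the knockout the higher windows were thus the larger group under both scalings without input, and the lower windows under both with input.

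The lowest 2 ratios in 2i were at genes of epithelia, Esrp1 and Epcam. Epcam, which encodes an adhesion protein of epithelia and stem cells, had 325 RNAP2 reads in serum, 7 in 2i and 355 in knockout cells, or 214, 7.76 and 218 CPM. It was 27.5-fold lower in 2i (13.2 to 69) and level in knockout cells, with a ratio of 1.02 (0.874 to 1.19). Its window at chr17:88034819-88035818 had 18, 22 and 17 input reads, similar in the 3 cultures. Esrp1, an epithelial splicing regulator at chr4:11313431-11314430, had 62 reads in serum, 0 in 2i and 110 in knockout cells, with 27, 16 and 16 input reads. Taking 3 reads as the limit that a count of 0 allows, 3.33 CPM, Esrp1 was at least 12.2-fold lower in 2i. Both windows were below the silent windows' median of 11.1 CPM in 2i. H3K27me3 went the other way in 2i: Epcam had 14.7 CPM in serum, 77.5 in 2i and 13.9 in knockout cells, and Esrp1 11, 89.1 and 22.5. The RNA fell in both by limma with Benjamini-Hochberg adjustment: for Epcam by 1.90 (log2, SE 0.30, adjusted p = 0.000467), and for Esrp1 by 1.24 (SE 0.32, adjusted p = 0.0118). With 1 serum or knockout library left out in turn, the limma adjusted p of Epcam was 0.00653 to 0.022 and that of Esrp1 0.0232 to 0.0618, past 0.05 without serum replicate 1. In single cells, Esrp1 was at 1 TPM or more in 52.2% and 34.4% of cells on the serum plates, in 0 of 94 cells in 2i, which allows a share of up to 3.19%, and in 82.1% in knockout cells. Among the other windows with the lowest ratios, Morf4l2, a chromatin protein gene on the X chromosome, had 224, 12 and 186 reads, 11.1-fold lower in 2i (6.21 to 21.7). Its RNA was 187 and 202 TPM in serum, 66.6 in 2i and, for each knockout library, 174. Agpat4, a lipid acyltransferase, had 144, 7 and 87 reads and Sox4, a transcription factor, 151, 10 and 195, 12.2-fold (5.77 to 30.9) and 8.95-fold (4.74 to 19) lower in 2i.

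The 250 bases before the start of Epcam (GRCm38.p6, chr17:87635729-87635978, plus strand) are shown beside those of Plagl1, the most increased imprinted gene described below (chr10:13090582-13090831, plus strand). Capitals mark matches to GGGCGG, the GC box, and to CACGTG, an E box, on either strand.
Epcam: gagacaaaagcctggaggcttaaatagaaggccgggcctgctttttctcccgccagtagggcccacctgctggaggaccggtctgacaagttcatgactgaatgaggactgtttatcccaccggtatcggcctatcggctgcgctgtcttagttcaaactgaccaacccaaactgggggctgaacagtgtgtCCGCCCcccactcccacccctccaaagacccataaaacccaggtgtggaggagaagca
Plagl1: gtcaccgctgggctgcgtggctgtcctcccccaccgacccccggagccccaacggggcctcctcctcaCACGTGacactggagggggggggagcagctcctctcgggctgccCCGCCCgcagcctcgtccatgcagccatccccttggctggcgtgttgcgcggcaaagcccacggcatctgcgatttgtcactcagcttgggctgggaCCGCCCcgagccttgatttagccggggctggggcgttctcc
Epcam has 8 CpG and Plagl1 19 in these bases. GGGCGG was in 72.3% of 321 matched promoters at least 2-fold higher in 2i, in 66.4% of 339 lower and in 67.5% of 6634 in between. The shares holding CCGGAAG were 11.8%, 17.7% and 23.2%.

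Of 13 ERK feedback and target genes, all counted, 7 were at least 2-fold lower in 2i and none higher, with a median log2 ratio of -1.19 against -0.02 over all counted windows. In the knockout 1 of 13 was lower and none higher, with a median of -0.30 against -0.06. Over all counted windows, 4.87% were at least 2-fold lower and 4.46% higher in 2i, and 1.85% and 3.73% in knockout cells. Occupied windows of the list went from 13 in serum to 5 in 2i and 11 in knockout cells. Over all windows the occupied shares were 31.7%, 20.8% and 25.0%, and the part of lower library enrichment in this was not tested. Dusp6, a phosphatase that inactivates ERK, had 354 reads in serum, 34 in 2i and 313 in knockout cells, and was 6.17-fold lower in 2i (4.33 to 9.05). Spry4, an inhibitor of receptor tyrosine kinase signalling, had 175, 11 and 151 reads and was 9.43-fold lower in 2i (5.14 to 19.2). Etv4, an ETS transcription factor induced by ERK, had 247, 26 and 189 reads and was 5.63-fold lower (3.75 to 8.79). Myc had 164, 33 and 83 reads and was lower in both, 2.95-fold (2.02 to 4.42) in 2i and 2.12-fold (1.62 to 2.79) in knockout cells. Dusp5 and Phlda1 stayed near serum, with log2 ratios of -0.04 and 0.03 in 2i. Of 9 list members tested in RNA, 5 fell and 1 rose in 2i by limma (adjusted p under 0.05). For comparison, 11.8% of 10081 genes tested fell and 20.4% rose, or 18.7% and 13.8% after centring on the median gene. Of the 5 that fell, 3 were still called with each serum or knockout library left out in turn. Over all genes, 2054 rose and 1185 fell in 2i, against 1352 and 1170 without serum replicate 2, 1182 and 674 without knockout replicate 1, and 1172 and 675 without knockout replicate 2. The member that rose was Ccnd1, the G1 cyclin D1, whose RNAP2 was 2.56-fold lower (1.91 to 3.47) while its RNA was 1.01 higher on the log2 scale (limma, adjusted p = 0.0304, or 0.023 to 0.139 with a library left out, past 0.05 without serum replicate 2 or either knockout library).

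**Figure D2:**
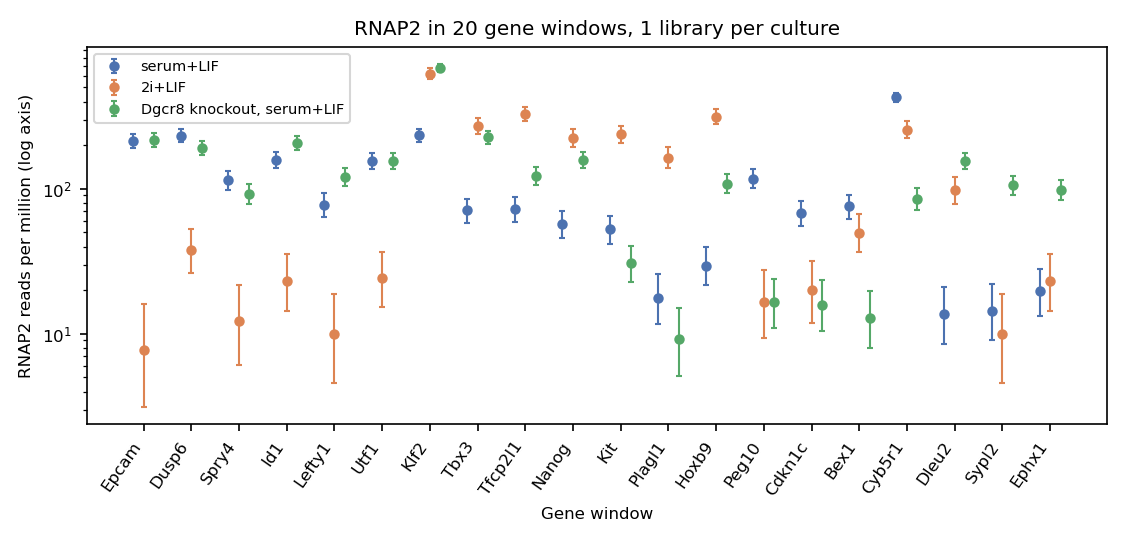
RNAP2 CPM (log axis) in 20 gene windows, with exact 95% Poisson intervals as bars and 1 library per culture. Epcam, Dusp6, Spry4, Id1, Lefty1 and Utf1 are low in 2i alone, Plagl1 and Kit high in 2i alone, and Peg10 and Cdkn1c high in serum alone.

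Targets of BMP and Nodal signalling differed among themselves in 2i. Of 11 counted windows of 12, 8 were below serum and 3 above; 5 were at least 2-fold lower and 1, Id4, higher, with a median log2 ratio of -0.93, while 4.87% of all counted windows were at least 2-fold lower and 4.46% higher. In the knockout none was lower and 2, Smad6 and Lefty2, were higher, with a median of 0.38. Id1, an inhibitor of differentiation induced by BMP, had 242 reads in serum, 21 in 2i and 338 in knockout cells, and was 6.83-fold lower in 2i (4.37 to 11.2). Id3 had 255, 64 and 326 reads, 2.36-fold lower in 2i (1.79 to 3.16). The RNA of Id1 and Id3 did not follow RNAP2 in knockout cells: Id1 fell by 2.18 (log2, SE 0.26, limma adjusted p = 1.37e-05) and Id3 fell by 3.80 (SE 0.23, limma adjusted p = 5.27e-08), with RNAP2 ratios of 1.30 (1.1 to 1.54) and 1.19 (1.01 to 1.41). Lefty1, an inhibitor of Nodal, had 118, 9 and 198 reads, and its RNA was 0.42 and 0.443 TPM in serum, 2.38 in 2i, and 121 and 180 in knockout cells. Lefty2 had 59, 11 and 175 reads, with a knockout ratio of 2.77 (2.05 to 3.78).

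Several genes of naive pluripotency held more RNAP2 in 2i. Of 12 counted windows of 16, 4 were at least 2-fold higher in 2i and none lower, with a median log2 ratio of 0.51. In the knockout 2 were higher and 1 lower, with a median of 0.61, which goes to 0.007 after division by input. Of all counted windows, 4.46% were higher and 4.87% lower in 2i, and 3.73% and 1.85% in knockout cells. Tfcp2l1, a transcription factor of the naive network, had 110 reads in serum, 297 in 2i and 201 in knockout cells, 4.56-fold higher in 2i (3.65 to 5.72). Tbx3 had 108, 246 and 371 reads, 3.84-fold higher in 2i (3.05 to 4.86) and 3.20-fold in knockout cells (2.58 to 4.01). Klf2 had 356, 562 and 1114 reads, 2.66-fold higher in 2i (2.33 to 3.05) and 2.92-fold in knockout cells (2.59 to 3.30). Klf4 had 71, 152 and 94 reads and was 3.61-fold higher in 2i (2.71 to 4.86), and its knockout ratio of 1.24 (0.897 to 1.71) spans 1. Klf5 had 228, 168 and 111 reads and was 2.20-fold lower in knockout cells (1.75 to 2.79). Of all genes tested in RNA, 20.4% rose and 11.8% fell in 2i. In RNA, 10 of 14 tested members of the list rose in 2i and none fell, and 10 rose and 1 fell in knockout cells (6 and 4 after centring), where 62.5% of all tested genes rose and 11.7% fell before centring (21.8% and 36.5% after). With each library left out in turn, 7 of the 10 were still called in 2i and 8 of the 10 in knockout cells, and the 1 that fell was not.

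The core pluripotency genes moved apart from each other in 2i. Of 9 counted windows of 10, 1 was at least 2-fold higher and 2 lower in 2i, and 2 were higher and none lower in knockout cells. The shares higher and lower over all counted windows were 4.46% and 4.87% in 2i and 3.73% and 1.85% in knockout cells. Nanog had 87, 203 and 258 reads, 3.94-fold higher in 2i (3.05 to 5.12) and 2.77-fold in knockout cells (2.16 to 3.57), in a window that overlaps that of Nanogpd. Mean Nanog RNA in single cells was 819.9 TPM on the first serum plate, 1710 on the second, 918.1 in 2i and 368.2 in knockout cells. It was thus lower than on both serum plates in knockout cells, and between them in 2i. Utf1 had 237, 22 and 253 reads and Sall4 238, 39 and 286, 6.38-fold (4.12 to 10.4) and 3.62-fold (2.57 to 5.21) lower in 2i. The RNA of Utf1 fell in 2i by 1.96 (log2, SE 0.41, limma adjusted p = 0.00319, or 0.00166 to 0.0589 with a library left out, past 0.05 without either knockout library). The RNA of Sall4 was 96.1 and 90.3 TPM in serum, 90.4 in 2i, and 94.1 and 87.5 in knockout cells, a log2 difference of -0.04 in 2i (SE 0.19, limma adjusted p = 0.885). Pou5f1, the central factor Oct4, had 136, 77 and 101 reads, with log2 ratios of -0.06 in 2i and -0.53 in knockout cells. Of 10 list members tested in bulk RNA, 3 rose and 4 fell in 2i, and 5 rose and 2 fell in knockout cells. After centring the counts were 3 and 5 in 2i and 2 and 5 in knockout cells. Of all genes tested, 20.4% rose and 11.8% fell in 2i, and 62.5% and 11.7% in knockout cells. After centring these shares were 13.8% and 18.7% in 2i and 21.8% and 36.5% in knockout cells.

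**Figure D3:**
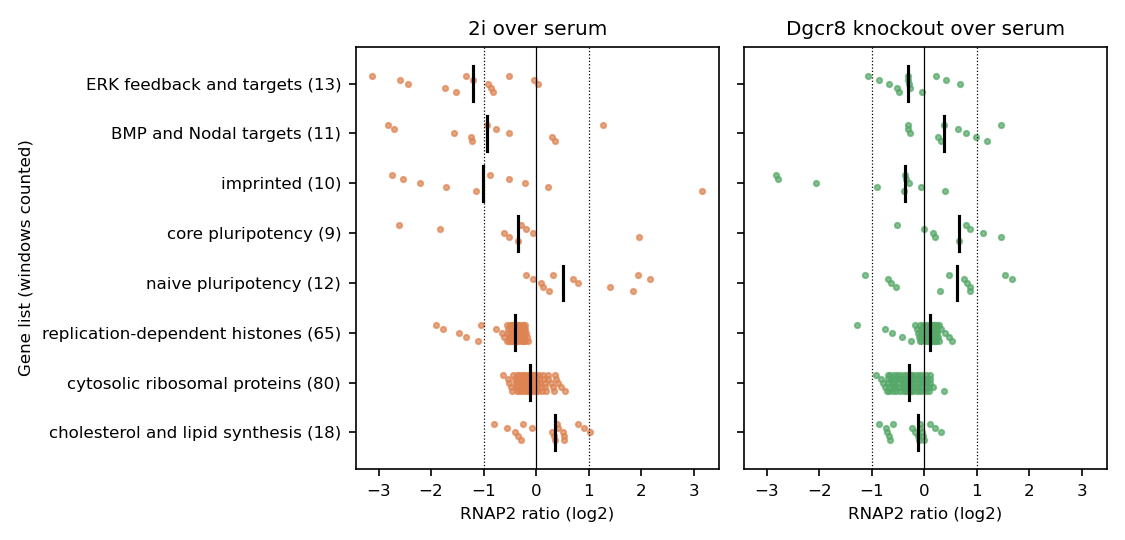
RNAP2 log2 ratio over serum (column-sum scaling) for the counted windows of 8 gene lists, in 2i (left) and in the Dgcr8 knockout (right); each point is 1 gene, black bars are list medians and dotted lines mark 2-fold. The ERK list has its median at -1.19 in 2i and -0.30 in knockout cells.

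Imprinted genes, of which only the copy from one parent is active, were mostly lower in 2i. Of 10 counted windows of 19, 5 were at least 2-fold lower in 2i and 1 higher, and 3 were lower in knockout cells and none higher. Peg10 and Sgce start head to head on chromosome 6, their windows share most of their bases, and both are in these counts although they are largely the same reads. Over all counted windows, 4.87% were lower and 4.46% higher in 2i, and 1.85% and 3.73% in knockout cells. Peg10 had 179 reads in serum, 15 in 2i and 27 in knockout cells, 7.07-fold lower in 2i (4.17 to 12.9) and 7.11-fold lower in knockout cells (4.73 to 11.1). Its input was 25, 30 and 19 reads. H3K4me3 in the window was 37.4 CPM in serum, 13.3 in 2i and 10.2 in knockout cells, and H3K27ac 59, 12.9 and 12.5. The RNA of Peg10 was 3.12 and 1.89 TPM in serum, 0.171 in 2i, and 0.232 and 0.182 in knockout cells, a fall of 1.56 in 2i and 1.52 in knockout cells (log2, limma adjusted p = 0.00191 and 0.000138). Cdkn1c, a cell cycle inhibitor, had 104, 18 and 26 reads, 3.42-fold lower in 2i (2.06 to 6.0) and 4.29-fold lower in knockout cells (2.77 to 6.87). Phlda2, its neighbour in the same imprinted region, had 85, 10 and 87 reads, low in 2i alone. Plagl1, a zinc finger factor, had 27, 148 and 15 reads, 9.25-fold higher in 2i (6.11 to 14.5). Its RNA was 0.0607 and 0 TPM in serum, 4.86 in 2i, and 0.18 and 0.192 in knockout cells. In single cells it was at 1 TPM or more in 10.0% and 12.9% of serum cells, in 100% of 2i cells and in 0 of 84 knockout cells, which allows up to 3.57%. H3K27me3 at Plagl1 was 172 CPM in serum, 52.3 in 2i and 36.4 in knockout cells.

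Among other windows high in 2i, Kit, the receptor of stem cell factor, had 80, 214 and 50 reads, 4.51-fold above serum (3.48 to 5.91). Its RNA rose by 2.99 (log2, SE 0.32, limma adjusted p = 2.42e-05, or 0.00304 to 0.00614 with a library left out), and Kit was at 1 TPM or more in 23.3% and 26.9% of serum cells and in 100% of 2i cells. Calcoco2, an autophagy receptor, had 21, 82 and 100 reads, 6.59-fold above serum in 2i (4.04 to 11.2) and 4.44-fold in knockout cells (2.75 to 7.49). Its RNA was 3.04 and 3.45 TPM in serum, 38.5 in 2i, and 49.6 and 48.8 in knockout cells. The predicted gene Gm15698 had 21, 177 and 45 reads, 14.2-fold above serum in 2i (9.02 to 23.5). Dio3, an imprinted deiodinase that was not in the list above, had 36, 145 and 99 reads. In all, 129 windows stood at least 2-fold above and 236 at least 2-fold below both other cultures in 2i, and 113 and 67 did so in knockout cells.

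The windows with the highest ratios in knockout cells include several with few reads in serum. Dleu2, a long non-coding RNA that hosts microRNAs, had 21 reads in serum, 88 in 2i and 255 in knockout cells, 11.3-fold above serum in knockout cells (7.25 to 18.6). Its H3K27me3 was 130 CPM in serum, 13.6 in 2i and 43.3 in knockout cells, and H3K27ac 33.2, 239 and 219. The 250 bases before its start (GRCm38.p6, chr14:61682374-61682623, minus strand) hold 27 CpG, 6 GC boxes and 1 E box, in capitals.
Dleu2: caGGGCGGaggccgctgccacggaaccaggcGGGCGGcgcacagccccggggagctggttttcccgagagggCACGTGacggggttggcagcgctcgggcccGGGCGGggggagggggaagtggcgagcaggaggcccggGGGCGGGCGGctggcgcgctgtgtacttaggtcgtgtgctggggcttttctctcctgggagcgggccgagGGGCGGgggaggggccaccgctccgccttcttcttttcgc
Ephx1, a microsomal epoxide hydrolase, had 30, 21 and 161 reads, 5.00-fold above serum in knockout cells (3.37 to 7.66). Its RNA was 1.85 and 0.659 TPM in serum, 3.54 in 2i, and 46.8 and 48.5 in knockout cells. It was at 1 TPM or more in 16.7% and 17.2% of serum cells and 97.6% of knockout cells. Sfrp1, a secreted Wnt antagonist, had 35, 86 and 230 reads, 6.13-fold above serum in knockout cells (4.28 to 9.01), and its RNA rose by 4.0 (log2, SE 0.23, limma adjusted p = 3.99e-08). Sypl2, a muscle membrane protein, had 22, 9 and 172 reads with RNA at 0.186 TPM or less in every bulk library. Its H3K27me3 was 216 CPM in serum, 138 in 2i and 48.5 in knockout cells.

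Bzrap1 stood apart from the marks of its own start. It had 68, 37 and 446 RNAP2 reads, 6.12-fold above serum in knockout cells (4.73 to 8.02), while H3K4me3 in the window was 1.31, 1.03 and 1.76 CPM and H3K27ac 8.11, 4.68 and 5.51. Its RNA was listed at 0 in every bulk library. The Mir142 window lies on the same strand of chromosome 11, at 87569866-87570865 before the Bzrap1 window at 87573543-87574542. There RNAP2 was 98, 30 and 362 reads, 3.44-fold above serum in knockout cells (2.75 to 4.35), with H3K4me3 of 33.5, 22.2 and 228 CPM. Whether the 2 windows lie in the same transcript was not tested.

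Among the lowest windows in knockout cells, Cyb5r1, a cytochrome b5 reductase, had 649, 231 and 139 reads, 5.01-fold below serum (4.16 to 6.06). Its RNA rose by 0.64 on the log2 scale (SE 0.18, limma adjusted p = 0.00584, or 0.00781 to 0.0898 with a library left out, past 0.05 without either knockout library), below the median change of 0.92 over all genes tested in knockout cells. H3K27ac at Cyb5r1 was 166, 203 and 205 CPM. Bex1, an X-linked gene of neural tissue and stem cells, had 115, 45 and 21 reads, 5.87-fold below serum in knockout cells (3.67 to 9.85). Its RNA was 331 and 392 TPM in serum, 328 in 2i, and 68.8 and 75.7 in knockout cells. Nrxn2 and Slc35a2 followed, 4.92-fold (2.89 to 8.87) and 4.85-fold (3.06 to 7.98) below serum. On the X chromosome as a whole, 24 of 201 counted windows (11.9%) were at least 2-fold lower in 2i and 10 (4.98%) in knockout cells, against 4.87% and 1.85% of all windows. The median log2 ratios were -0.17 and -0.20, and the input of X windows relative to serum was 0.984 in 2i and 0.942 in knockout cells; the part of copy number in this was not tested.

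Few Polycomb-target genes held RNAP2 in any culture. Of 36 developmental regulators 4 counted, and of 39 Hox windows 3. The Hox windows had a median of 7.88 CPM in serum, 15.5 in 2i and 11.6 in knockout cells, near the silent windows. Hoxb9 had 45, 284 and 177 reads, 10.6-fold above serum in 2i (7.75 to 14.9) and 3.67-fold in knockout cells (2.63 to 5.21). Its RNA was at 0.524 TPM or less in every bulk library, and its H3K27me3 was 196 CPM in serum, 62 in 2i and 97.0 in knockout cells. Sox1, a neural factor, had 26, 72 and 67 reads. Windows were also classed by their marks in serum, with high H3K27me3 meaning the top 10% of its ratio to input and high H3K4me3 a ratio above the median. In 1181 windows high in both marks, median RNAP2 was 11.8, 14.4 and 14.1 CPM, against 55.9, 54.3 and 53.9 in 10403 windows with H3K4me3 but not H3K27me3. Of those that counted in the first class, 15.6% were at least 2-fold higher and 12.6% lower in 2i, and 19.3% and 5.19% in knockout cells. In the second class the shares were 3.34% and 4.70%, and 2.51% and 1.78%. Windows with neither mark had shares nearer the first class. Of 792 that counted, 13.8% were higher and 5.43% lower in 2i, and 13.6% and 1.77% in knockout cells. Of 20 counted windows with H3K27me3 but little H3K4me3, the shares were 30% and 0%, and 15% and 10%. The first class had fewer reads per window than the second, and the part of counting error in its wider ratios was not tested. Median RNAP2 was under the minimum mean of 30 CPM in every class but the second. A window low in 2 cultures could thus count through a high level in 1, which favours 2-fold ratios. The part of this selection in the larger shares of those classes was not tested.

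Of 617 microRNA windows 105 counted, of which 67 overlap another window, and the windows follow the annotated hairpin, not the start of the primary transcript. In 2i 7 were at least 2-fold higher and 3 lower; in knockout cells 7 were higher and none lower. Over all counted windows the shares were 4.46% and 4.87% in 2i and 3.73% and 1.85% in knockout cells, so most of these counts are near the background. The miR-290 cluster, the most abundant microRNA locus of embryonic stem cells, spans 7 windows at chr7:3218127-3221273 that largely overlap. They held 587 to 772 CPM in serum, 306 to 396 in 2i and 502 to 676 in knockout cells, so their ratios to serum were 0.498 to 0.581 in 2i and 0.846 to 0.876 in knockout cells. Mir295 alone had 1175, 357 and 1104 reads, a 2i ratio of 0.513 (0.454 to 0.578) and a knockout ratio of 0.876 (0.806 to 0.952). The 4 windows of the miR-302 cluster at chr3:127247646-127249041 held 21.7 to 25.0, 23.3 to 25.5 and 47.2 to 51.5 CPM, with ratios of 1.02 to 1.18 in 2i and 1.89 to 2.35 in knockout cells. The clusters matter together because they make microRNAs with nearly the same seed, bases 2 to 8, which pair with targets. RefSeq (GRCm38.p6) mature sequences are shown with the seed in capitals.
miR-291a-3p: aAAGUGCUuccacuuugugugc
miR-294-3p: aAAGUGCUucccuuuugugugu
miR-295-3p: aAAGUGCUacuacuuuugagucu
miR-302b-3p: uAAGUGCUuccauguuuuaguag
miR-302d-3p: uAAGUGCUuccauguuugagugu
miR-290a-3p: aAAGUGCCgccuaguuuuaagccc
miR-291b-3p: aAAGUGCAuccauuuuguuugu
miR-302c-3p: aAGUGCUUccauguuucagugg
miR-293-3p: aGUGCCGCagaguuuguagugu
The first 5 share one seed, miR-290a-3p and miR-291b-3p differ from it at the last base, miR-302c-3p holds it shifted by 1 base, and miR-293-3p has another. The related miR-17 and miR-106b clusters make microRNAs of the shifted seed shown here.
miR-17-5p: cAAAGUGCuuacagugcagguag
miR-106b-5p: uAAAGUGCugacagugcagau
The 6 miR-17 windows had ratios of 0.536 to 0.787 in 2i and 0.821 to 1.08 in knockout cells, and the 3 miR-106b windows 1.24 to 1.37 and 1.09 to 1.28. Mir21 and Mir135b were lower in 2i, 2.69-fold (1.52 to 5.06) and 2.41-fold (1.76 to 3.34), and had knockout ratios of 1.37 (0.998 to 1.89) and 1.07 (0.882 to 1.29). The miR-290 windows were above 30 CPM in every culture. The miR-302 windows were above it in knockout cells alone, so they met the minimum mean of 30 CPM only through that culture. Their part in the counts of microRNA windows above rests on this.

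**Figure D4:**
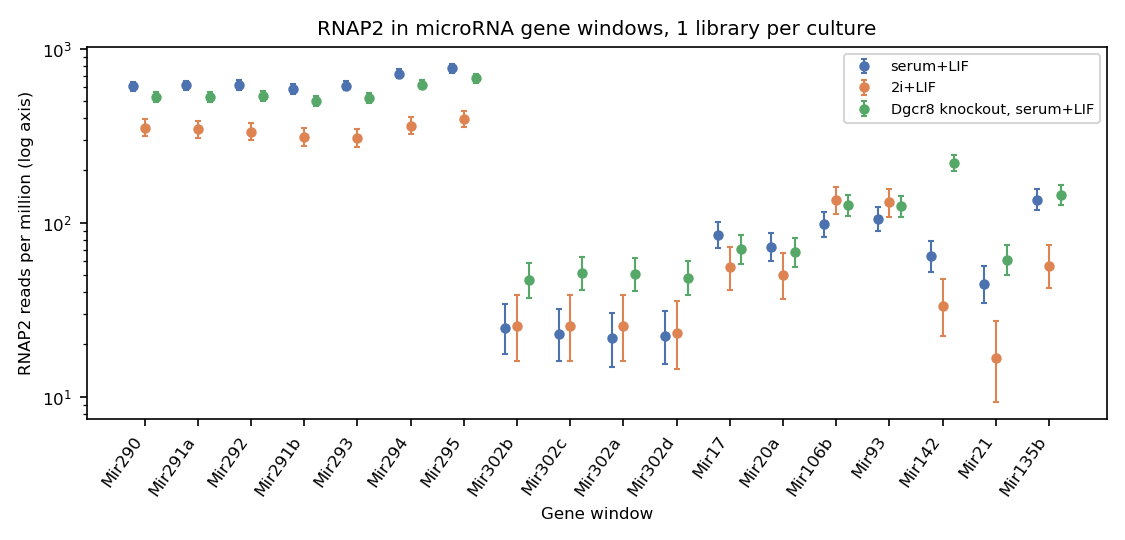
RNAP2 CPM (log axis) in 18 microRNA windows, with exact 95% Poisson intervals as bars and 1 library per culture. The 7 miR-290 cluster windows are lowest in 2i, at 306 to 396 CPM, and the 4 miR-302 cluster windows highest in knockout cells, at 47.2 to 51.5.

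Targets of this seed family and genes of the microRNA pathway were set beside these. Of 8 counted windows of 11 family targets, 2 were at least 2-fold higher in knockout cells, Lats2 and Ei24, and none lower. Over all counted windows, 3.73% were higher and 1.85% lower in knockout cells. Cdkn1a, the cell cycle inhibitor p21 and a known target, had 47, 32 and 69 reads, a knockout ratio of 1.37 (0.931 to 2.03), while its RNA rose by 4.63 (log2, SE 0.22, limma adjusted p = 9.69e-09). Of 7 family targets tested in RNA 5 rose in knockout cells and none fell, near the 62.5% of all tested genes that rose there. After centring on the median gene 5 still rose and none fell, against 21.8% and 36.5% of all tested genes. Of 14 counted microRNA machinery windows, 1 was at least 2-fold higher in knockout cells: Eif2c1, which encodes Argonaute 1, with 47, 28 and 114 reads (2.26-fold, 1.60 to 3.25). With so few windows, 1 of 14 does not stand apart from the 3.73% over all counted windows.

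RNAP2 was compared between genes whose RNA rose and fell. RNAP2 was above serum in 60.3% of genes that rose and 29.7% that fell in 2i, and in 47% and 26.4% in knockout cells. In 2i, 1358 counted windows whose gene rose in RNA had a median log2 RNAP2 ratio of 0.14 (95% order-statistic interval 0.10 to 0.18), and 809 whose gene fell had -0.25 (-0.28 to -0.20). The 4537 genes not called had -0.06. In the knockout, 4187 genes that rose had -0.03 (-0.05 to -0.01), 755 that fell had -0.25 (-0.27 to -0.21) and 1762 not called had -0.16. With RNA centred on the median gene, those that rose in knockout cells had a median of 0.05. The intervals are over genes of the same libraries, not over replicates. Genes with at least 4-fold RNA changes had larger RNAP2 differences: 0.39 and -0.55 in 2i (161 and 87 genes) and 0.10 and -0.31 in knockout cells (889 and 73 genes). Read from RNAP2, 108 of 219 tested genes at least 2-fold higher in 2i rose in RNA and 2 fell, and of 292 lower genes 91 fell and 19 rose. In the knockout 167 of 197 higher genes rose and 7 fell, or 92 and 25 after centring. Of 116 lower genes 62 rose and 25 fell, or 16 and 62 after centring. For comparison, of 6391 knockout genes within 2-fold 3958 rose and 723 fell, or 1284 and 2442 after centring. Spearman's rho across 6704 genes was 0.23 in 2i and 0.233 in knockout cells.

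**Figure D5:**
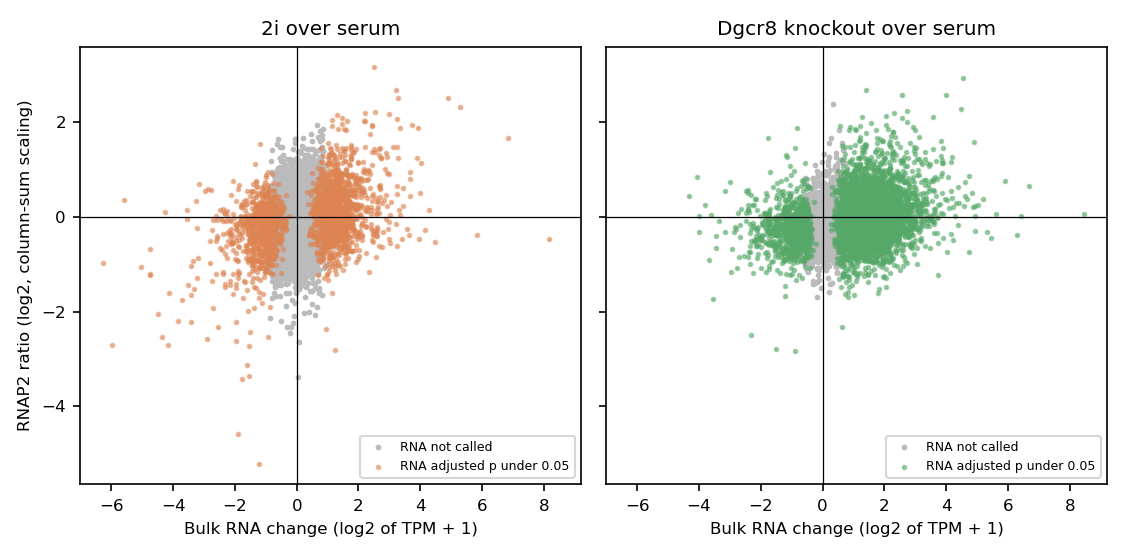
RNAP2 log2 ratio over serum against the bulk RNA log2 change for 6704 genes, in 2i (left) and in the Dgcr8 knockout (right); coloured points are genes with a limma adjusted p under 0.05, grey points the rest. In the knockout the cloud of RNA changes lies to the right of 0. The median change over all 10081 genes tested, plotted or not, was 0.92 on the log2 scale.

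Several large changes in bulk RNA came with level RNAP2, here a log2 ratio within 0.3 of 0. In 2i, Rnf17, a germ cell protein, was 5.02 and 5.71 TPM in serum and 123 in 2i at RNAP2 of 40.7 and 44.3 CPM. Gpx2, a glutathione peroxidase, went from 214 and 168 TPM to 15.3 at 26.9 and 25.5 CPM, but its window was not occupied in either culture, at 1.56 and 1.48 times the silent ratio to input. Sf3b3, a splicing factor subunit, went from 244 and 189 TPM to 22.1 at 196 and 166. In the knockout, Aldh2, an aldehyde dehydrogenase, was 3.49 and 2.37 TPM in serum and 94.3 and 168 in knockout cells at 68.3 and 80.9 RNAP2 CPM. Tomm5, of the mitochondrial import complex, went from 282 and 290 TPM to 26.2 and 19.5 at 126 and 130 CPM. In single cells mean Tomm5 was 299 and 271 TPM on the serum plates and 138 in knockout cells. Mean Aldh2 there was 2.57 and 1.35 TPM in serum and 52.9 in knockout cells. For Sf3b3 the single-cell means were 36.4 and 23.9 TPM in serum against 39.03 in 2i, so single cells did not show its fall. Mean Rnf17 was 9.664 and 11.95 TPM in serum against 133.4 in 2i. Mean Gpx2 was 56.51 TPM in 2i, below its mean on each serum plate. All 5 were called by limma (adjusted p from 8.74e-09 to 4.99e-07). The histone gene Hist2h4 had RNAP2 of 516, 375 and 535 CPM, and RNA of 0 and 0.715 TPM in serum, 373 in 2i, and 466 and 460 in knockout cells. Of 25 histone genes tested in RNA 21 rose in each comparison (15 in 2i and 14 in knockout cells after centring), where 20.4% of all tested genes rose in 2i and 62.5% in knockout cells (13.8% and 21.8% after centring). With each library left out in turn, 12 were still called in 2i and 15 in knockout cells. The histone windows had RNAP2 below serum in 65 of 65 windows in 2i and above it in 47 of 65 in knockout cells. Of all 9304 counted windows, 4778 were below serum in 2i and 4113 above it in knockout cells. Several histone windows overlap and share reads, so these 65 are not separate observations. After division by input the knockout median log2 RNAP2 ratio of the histone list changed from 0.11 to -0.14. The ribosomal protein genes had median log2 RNAP2 ratios of -0.11 in 2i (0.05 after subtraction of input-derived counts) and -0.28 in knockout cells, with none of 80 past 2-fold. Of 18 counted windows of 22 cholesterol and lipid synthesis genes, 1 was at least 2-fold higher in 2i and none lower, with a median log2 ratio of 0.36, and none passed 2-fold in knockout cells, with a median of -0.11. In RNA 15 of 22 tested members of that list rose and none fell in each comparison, or 12 and none in 2i and 6 and 8 in knockout cells after centring, against the same shares of all tested genes. With each library left out in turn, 10 were still called in 2i and 11 in knockout cells.

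Marks of active starts differed in the same direction as RNAP2. In 2i, windows at least 2-fold higher in RNAP2 had median log2 ratios of 0.29 in H3K4me3, 0.61 in H3K27ac and -0.22 in H3K27me3, and windows at least 2-fold lower had -0.42, -0.67 and 0.66, against 0.03, 0.01 and 0.40 in between. In the knockout the medians were 0.54, 0.59 and -0.20 for higher windows and -0.23, -0.56 and 0.50 for lower ones, against -0.04, -0.04 and 0.33. Input differed little between these classes, with medians of 0.10, 0.04 and 0.12 in 2i and 0.04, 0.03 and 0.05 in knockout cells. Across 9304 windows, Spearman's rho of the RNAP2 ratio was 0.422 with the H3K27ac ratio in 2i and 0.417 in knockout cells, and 0.337 and 0.367 with H3K4me3. With input it was 0.024 and 0.021. Levels followed the same order within a culture: in serum rho was 0.866 with H3K27ac, 0.803 with H3K4me3, -0.302 with H3K27me3 and 0.452 with input over 23167 windows.

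Genes with a mean of 1 to 10 TPM and more RNAP2 at the start were detected in more single cells of the same culture. Among 5023 genes with a mean of 1 to 10 TPM on the first serum plate, genes up to the lower quartile of RNAP2 were at 1 TPM or more in a median of 47.8% of 90 cells, and genes from the upper quartile in 68.9%. The second serum plate gave 54.8% and 73.1% of 93 cells, 2i 44.7% and 68.1% of 94, and the knockout 29.8% and 52.4% of 84. The mean levels of these groups were not the same, at medians of 2.51 and 3.90 TPM on the first serum plate and 2.70 and 5.05 in knockout cells, and the part of this in the shares was not tested. At 10 to 100 TPM the shares were near their limit, 98.9% and 100% on both serum plates, 96.8% and 100% in 2i and 85.7% and 95.2% in the knockout, and at 100 to 1000 TPM they were 100% in every group.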

How the data were processed

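RNAP2 and input ChIP-seq, histone-mark ChIP-seq, bulk RNA-seq and single-cell RNA-seq of 3 mouse embryonic stem cell cultures were used. The deposited ChIP table held raw read counts per window of 1000 bases. The bulk and single-cell RNA tables were deposited as the natural log (ln) of TPM plus 1, which was reversed. Bowtie, RSEM and build mm9 are named without roles or versions, per the submitters' processing notes. Whether duplicates were removed or reads extended is not stated by any header or label used. Counts were scaled by column sums, and 1 count was added before log2 ratios. RNA was tested with limma 3.58.1 (R 4.3.3) on log2(TPM + 1) of genes with a mean of at least 1 TPM, with Benjamini-Hochberg adjustment (adjusted p under 0.05). The log2 scale with 1 added understates changes of low genes. TMM factors came from edgeR 4.0.16. The scripts were tested on simulated data. Named genes were the windows with the most RNAP2, the extreme ratios, those farthest apart in 1 culture, changed RNA with level RNAP2, most RNAP2 with RNA at 0, all microRNA windows and list members. The members and lists were chosen with earlier results of these data known.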

Additional observations from a re-analysis of the deposited data

How the results depend on the processing

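Each RNAP2 library is the only one of its culture, so no RNAP2 value has a replicate check, and depth (902007 to 1632114 reads in windows) limits ratios of windows with few reads. In 2i, windows higher and lower than serum numbered 745 and 1236 after division by input, 946 and 1334 after subtraction of input-derived counts, 1013 and 747 with a minimum of 15 CPM, 125 and 175 with 60, 3441 and 1554 with no minimum, and 91 and 104 at 3-fold. In the knockout they numbered 804 and 1008, 808 and 998, 745 and 376, 114 and 65, 2411 and 991, and 87 and 23. At 5 times the silent ratio 4746, 2142 and 2952 windows were occupied in serum, 2i and the knockout, and at 2 times 7270 in 2i. RNA calls in 2i were 960 rose and 509 fell with no filter, 1882 fell after centring, and 1172 to 1842 rose and 674 to 1170 fell with 1 library left out. In the knockout 3275 rose at a mean of at least 5 TPM, 2196 rose and 3681 fell after centring, 2926 and 2904 after quantile normalization, and 4942 to 6272 rose and 799 to 1092 fell with 1 library left out. The median log2 RNAP2 ratio of genes that rose and fell was 0.0233 and -0.36 in 2i and -0.0881 and -0.31 in the knockout under TMM. Divided by input it was -0.0134, a reversal, and -0.35 in 2i, and -0.0728 for genes that rose in the knockout. With centred RNA it was 0.054, a reversal, and -0.19 in the knockout. The cause of these was not tested. With a replicate block 6467 rose and 1223 fell in the knockout; serum and knockout libraries share only a number (correlation of deviations -0.0255 over 10081 genes). Of 86 named ratios past 2-fold, 85 were still past it under TMM, 77 divided by input, 85 after subtraction and 84 with 5 counts added, and 0 reversed. Leaving out windows of high input, chosen after seeing the data, gave 415 and 453 in 2i and 346 and 172 in the knockout.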
